A study of Homo sapiens with 6 samples.

Results

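Integrator and Mediator are the large multi-subunit complexes that act on RNA polymerase II, and the transcript levels of their subunits were compared between CBS KO and WT Caco-2 cells. Members were taken from the gene table by symbol: INTS followed by a number, MED followed by a number with an optional L, the Mediator kinases CDK8 and CDK19 with their cyclin CCNC, and the partners of INTS3 in the SOSS complex, INIP, NABP1 and NABP2. The rule found 50 genes of the 16781 in the table, 17 of Integrator and 33 of Mediator. All 50 passed the filter on low counts, which kept 13028 genes in all. INTS15 stands in the table under its older symbol C7orf26 and INTS6L does not match the rule, so neither was counted as a member.

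Caco-2 is a colon adenocarcinoma cell line that is widely used as a model of the gut epithelium. The series holds 3 libraries of CBS KO cells and 3 libraries of WT cells. The CBS KO cells had received Cas9, a guide against CBS and a puromycin resistance gene from a lentivirus and had been selected with puromycin, per the series' design text, and the WT cells carry the genotype label WT. No cells given the empty vector were analysed here, so the effects of the knockout, of infection and of selection cannot be told apart, and whether the knockout cells are 1 clone is not given in the sources used here. The series addresses what changes when CBS, an enzyme of transsulfuration that also releases hydrogen sulfide, is lost.

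Integrator binds RNA polymerase II near the start of genes. Its cleavage module cuts the nascent RNA, its phosphatase module brings protein phosphatase 2A to the polymerase, and the complex is known for making the ends of the small nuclear RNAs of the splicing machinery and for ending transcription early at many protein-coding genes. Mediator bridges enhancer-bound transcription factors and the polymerase through its tail, middle and head modules, which the scaffold subunit MED14 holds together, while a separable kinase module reversibly keeps Mediator from the polymerase. Small nuclear RNA genes were not analysed here, and the libraries were made from poly(A)-selected RNA.

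The estimated counts summed to between 12805180 and 14307287 in CBS KO libraries and to between 16097680 and 16176745 in WT libraries. CBS itself, the targeted gene, had 24.6, 18.5 and 25.4 CPM in CBS KO, against 48.8, 52.99 and 50.6 CPM in WT, where CPM are counts set against the library total after edgeR's trimmed-mean (TMM) scaling. This was a 2.22-fold lower level in CBS KO, with no overlap between the groups. The estimated counts of CBS were not whole, and how reads were shared between CBS and its copy CBSL is not given in the sources used here. A transcript level does not measure how much CBS protein was lost. Of the epithelial markers all 8 were present, with a summed level of 4954 to 5222 TPM (a length-corrected share of the library's transcripts) in CBS KO and 5373 to 6238 TPM in WT. Most of that sum was KRT8, KRT18 and EPCAM, and single markers differed in opposite directions. CDX2, an intestinal transcription factor, had 35.8 to 39.01 TPM in CBS KO and 193 to 214 TPM in WT, HNF4A, another, had 113 to 125 TPM in CBS KO and 322 to 370 TPM in WT, and VIL1, which encodes villin of the brush border, had 149 to 158 TPM in CBS KO and 280 to 291 TPM in WT. EPCAM had 1052 to 1179 TPM in CBS KO and 767 to 801 TPM in WT, and KRT20 had 3.26 to 3.95 TPM in CBS KO and 0.88 to 1.01 TPM in WT. The 3 leukocyte markers used summed to 0.88 to 1.47 TPM in CBS KO and 0.79 to 1.56 TPM in WT, with the defining marker PTPRC at 0.02 TPM or less in every library. The 4 fibroblast markers summed to 38.8 to 45.4 TPM in CBS KO and 67.7 to 76.3 TPM in WT, nearly all of it COL1A1, with COL1A2 at 0.02 TPM or less. The 3 endothelial markers summed to 2.90 to 3.11 TPM in CBS KO and 13.1 to 14.4 TPM in WT, nearly all of it PECAM1, and the part of these differences in the results below was not tested. Whether replicates are separate cultures is not given in the labels, and the spread that the p-values rest on may be technical. In bulk RNA, fewer cells of a type and less RNA per cell cannot be told apart.

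More members of both complexes were lower than higher in CBS KO cells, and INTS5 stood far below the rest. Of the 50 members 44 passed an adjusted p of 0.05 in edgeR's quasi-likelihood test with Benjamini-Hochberg adjustment over all genes, 29 lower and 15 higher in CBS KO. In Integrator 10 of 17 were lower and 3 higher, and in Mediator 19 of 33 were lower and 12 higher. Across all genes tested 77.2% were called, so a call on a member is not unusual in these libraries. The share called lower was 58% of members against 38.9% of all genes, and the share called higher was 30% of members against 38.4% of all genes. The median log2 fold change was -0.23 over the Integrator members and -0.38 over the Mediator members, against -0.01 over all genes. At least 2-fold lower were 8 of the 50 members, INTS5 and INTS9 of Integrator and MED18, MED9, MED11, MED25, MED29 and MED17 of Mediator, against 11.5% of all genes. In 45 of 50 members the CPM of the groups did not overlap, against 79.1% of all genes.

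Directions depended on how libraries were scaled. With TMM the calls over all genes were balanced, with 49.7% of them higher in CBS KO, while scaling by the library total gave 28.6%, FPKM (fragments per gene length and library total) 28.4% and TPM 18.5%. TMM by design centres most genes near no change, so the balance under TMM is not an independent result. The TMM factors were 0.905, 0.889 and 0.860 in CBS KO libraries, against 1.126, 1.133 and 1.133 in WT libraries. Over all genes the median log2 fold change stood at -0.36 by library total, -0.32 by FPKM and -0.54 by TPM. With limma on TPM 16 Integrator and 23 Mediator members were called lower, against 10 and 19 by TMM, and 4 Mediator members were called higher, against 12 by TMM. By TPM 67.6% of all genes tested were called lower and 15.3% higher. Of the 29 members lower by TMM, 28 kept their sign and their call under each of the 9 other settings that could test them, and INIP was the exception. Of the 15 members higher by TMM, MED8, MED12L, MED30 and MED10 kept both, and 8 turned to a negative log2 fold change under at least 1 setting. Of these, INTS12, INTS13, CCNC and CDK8 were also called lower by TPM. These counts are not an even test of the 2 directions. Several settings moved the median of all genes well down, and the highest median in any of them was 0.003, so a lower call was easier to keep. The levels below are TMM-scaled CPM unless another unit is named, and a log2 fold change is CBS KO over WT.

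**Figure D1:**
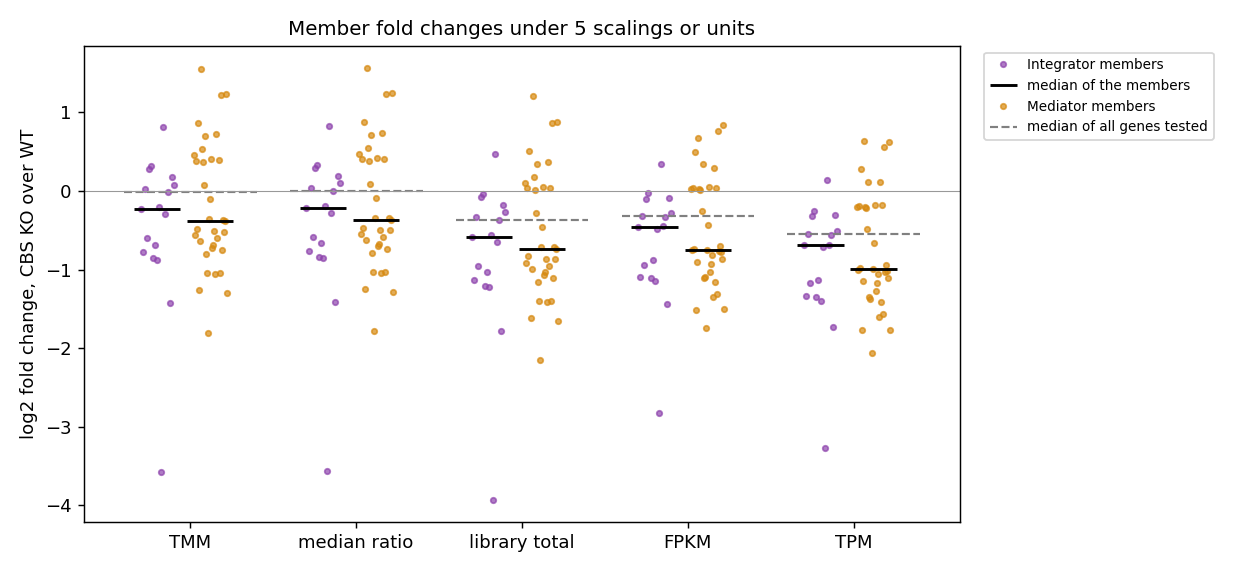
Log2 fold changes (CBS KO over WT, vertical axis) of the 17 Integrator members and the 33 Mediator members under 5 scalings or units, with black lines at the medians of the members and dashed grey lines at the median of all genes tested. INTS5 is the lowest point in each of the 5, and the medians of both complexes lie below the dashed line in each, while the whole pattern shifts down from TMM (median of all genes -0.01) to TPM (-0.54).

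INTS5, which forms the shoulder of Integrator together with INTS8, had a far lower transcript level in CBS KO cells than in WT cells. Its estimated counts were 25, 31 and 33 in CBS KO libraries, against 531, 537 and 560 in WT libraries. Scaled, INTS5 had 2.05, 2.72 and 2.68 CPM in CBS KO, against 29.2, 29.5 and 30.6 CPM in WT, that is 2.49 ± 0.378 CPM in CBS KO and 29.7 ± 0.752 CPM in WT (SD, n = 3 each). Every CBS KO library lay far below every WT library, and the counts stood well above 3, the number taken here as the limit of detection. The log2 fold change was -3.58 (SE 0.12), an 11.9-fold lower level, with an adjusted p of 1.54e-13 in edgeR's quasi-likelihood test. SE stands here and below for the size of the log2 fold change divided by the square root of the test's F statistic. It is not a standard error from the fit, and at counts as low as those of INTS5 in CBS KO it may understate the error. Of the 13028 genes tested 21 had a lower log2 fold change than INTS5, or 0.161%. Among the 4082 genes called lower with a WT mean of at least 10 CPM, 6 lay below it.

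INTS8, which in human Integrator contacts protein phosphatase 2A, had 53.8, 54.1 and 55.1 CPM in CBS KO, against 55.04, 55.4 and 53.8 CPM in WT. The groups of INTS8 overlapped, and its log2 fold change was -0.01 (SE 0.06), with an adjusted p of 0.883 in edgeR's quasi-likelihood test. By library total, FPKM and TPM INTS8 had log2 fold changes of -0.36, -0.33 and -0.56, each close to the median of all genes on that scale. The exons of INTS8 overlap those of CCNE2 on the opposite strand over 20.7% of their bases, and the use of strand in counting is not given in the sources used here. The ratio of INTS5 to INTS8 within a library does not depend on the scaling between libraries. That ratio of CPM was 0.0381, 0.0504 and 0.0487 in CBS KO libraries, against 0.530, 0.532 and 0.569 in WT libraries. On the log2 scale it averaged -4.46 ± 0.22 in CBS KO and -0.88 ± 0.06 in WT (SD, n = 3 each), 11.97-fold apart, with a two-sided exact permutation p of 0.1, the smallest that 3 against 3 libraries can give. Against the geometric mean of the other 16 Integrator members INTS5 stood at 0.0685, 0.0888 and 0.0892 in CBS KO libraries and at 0.803, 0.818 and 0.829 in WT libraries. INTS5 had 10.02-fold less transcript relative to these 16 members, and the groups did not overlap in either ratio. The 16 include INIP, NABP1 and NABP2 and leave out INTS15.

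**Figure D2:**
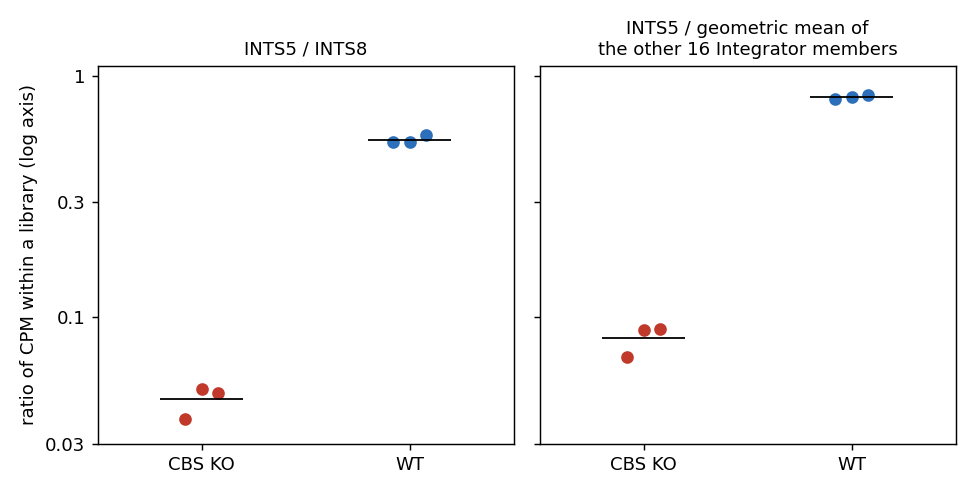
Ratio of INTS5 to INTS8 (left panel) and to the geometric mean of the other 16 Integrator members (right panel) in CPM within each library, on a log axis; points are libraries and lines are group means. The CBS KO libraries lie between 0.0381 and 0.0892 and the WT libraries between 0.530 and 0.829.

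Per length, INTS5 was the lowest member of its complex in CBS KO and of middling level in WT. It had 0.90, 1.13 and 1.03 TPM in CBS KO, against 18.1, 18.2 and 18.99 TPM in WT. In CBS KO it ranked 17 of the 17 Integrator members by mean TPM, and in WT it ranked 11. The member next above it in CBS KO was INTS9 at 4.03 TPM, and the median member had 14.3 TPM in CBS KO and 24.9 TPM in WT. The highest were INTS13 at 35.2 TPM in CBS KO and INTS11 at 70.8 TPM in WT. INTS5 lies on chromosome 11 at chr11:62646848-62653302 on the minus strand (RefSeq, GRCh38.p14). Its GENCODE v29 transcript has 3285 bases in 2 exons and a coding length of 3057 bases, of which 97.4% lies in its largest coding exon. An overlapping gene model on the same strand, AP001458.2, which has no row used here, covers 9.32% of its exonic bases.

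The Integrator member with the next largest fall was INTS9, the inactive partner of the endonuclease in the cleavage module. INTS9 had 7.21, 7.65 and 6.34 CPM in CBS KO, against 19.4, 18.05 and 19.3 CPM in WT. All 3 CBS KO libraries lay below all 3 WT libraries, with a log2 fold change of -1.42 (SE 0.10) and an adjusted p of 2.4e-09 in edgeR's quasi-likelihood test. INTS11, the endonuclease, had 45.01, 44.4 and 48.2 CPM in CBS KO, against 66.4, 69.3 and 72.8 CPM in WT, a log2 fold change of -0.60 (SE 0.07). INTS4, the subunit that binds the other members of this module, had 37.9, 39.2 and 41.5 CPM in CBS KO, against 43.8, 46.6 and 46.00 CPM in WT, a log2 fold change of -0.20 (SE 0.07). All 3 members of the cleavage module were called lower with no overlap, in unequal measure. Of all genes tested 38.9% were called lower and 79.1% had no overlap. The call on INTS4 had an adjusted p of 0.0577 in edgeR's test without WT replicate 2.

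In the backbone, INTS1, the largest subunit, had 96.98, 83.8 and 88.9 CPM in CBS KO, against 155, 154 and 155 CPM in WT. INTS2 had 26.3, 23.9 and 19.6 CPM in CBS KO, against 37.02, 37.3 and 37.7 CPM in WT. INTS7 had 23.8, 25.05 and 23.2 CPM in CBS KO, against 28.8, 29.1 and 30.4 CPM in WT. Each fell without overlap of the groups, with log2 fold changes of -0.78 (SE 0.06), -0.68 (SE 0.09) and -0.30 (SE 0.08). INTS12, a PHD finger protein that contacts INTS1, had 16.4, 16.3 and 18.5 CPM in CBS KO, against 12.96, 15.4 and 13.9 CPM in WT. Its log2 fold change of 0.28 (SE 0.10) by TMM turned to -0.08 by library total, -0.10 by FPKM and -0.32 by TPM. The call on INTS12 also depended on single libraries, with adjusted p of 0.0801, 0.0869 and 0.0511 in edgeR's test without CBS KO replicate 3, WT replicate 1 or WT replicate 3.

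INTS6, which ties the phosphatase to Integrator, was the Integrator member with the most positive change. It had 61.7, 60.1 and 49.6 CPM in CBS KO, against 34.4, 30.2 and 32.6 CPM in WT, a log2 fold change of 0.82 (SE 0.09) with an adjusted p of 2.01e-07 in edgeR's quasi-likelihood test. All CBS KO libraries lay above all WT libraries in CPM, while on the TPM scale the change was 0.14 and was not called (limma, adjusted p of 0.262). In the arm, which in human cells is known to bind transcription factors, INTS14 had 20.7, 22.8 and 24.5 CPM in CBS KO, against 39.2, 41.3 and 42.01 CPM in WT, a log2 fold change of -0.85 (SE 0.08) without overlap. INTS13 had 63.9, 71.8 and 66.6 CPM in CBS KO, against 54.2, 53.05 and 54.95 CPM in WT. Its groups did not overlap and the log2 fold change was 0.32 (SE 0.07) by TMM, but -0.04 by library total, -0.03 by FPKM and -0.25 by TPM. INTS10 had 28.2, 29.2 and 32.8 CPM in CBS KO, against 28.7, 29.7 and 30.5 CPM in WT, with overlapping groups and a log2 fold change of 0.02 (SE 0.08) that was not called by TMM and was -0.33 by library total, -0.32 by FPKM and -0.55 by TPM.

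INTS3 and its partners also form SOSS, a complex that binds single-stranded DNA in repair. INTS3 had 57.5, 55.98 and 58.4 CPM in CBS KO, against 109, 107 and 99.3 CPM in WT, a log2 fold change of -0.87 (SE 0.06) without overlap. INIP, a small subunit of SOSS, had 15.7, 15.03 and 15.04 CPM in CBS KO, against 18.5, 17.9 and 17.2 CPM in WT. The groups of INIP did not overlap, and the log2 fold change of -0.23 (SE 0.09) had an adjusted p of 0.0255 in edgeR's quasi-likelihood test, against 0.110 in DESeq2. Its adjusted p in edgeR's test was 0.0674, 0.0774 and 0.0602 without CBS KO replicate 2, WT replicate 1 or WT replicate 2. NABP1, a single-strand binding subunit, had 12.8, 14.1 and 11.5 CPM in CBS KO, against 12.03, 9.60 and 12.4 CPM in WT. NABP2, which takes the same place in the complex, had 23.9, 30.8 and 32.3 CPM in CBS KO, against 27.2, 26.6 and 28.3 CPM in WT. Both had overlapping groups and were not called by TMM, with log2 fold changes of 0.17 (SE 0.12) and 0.08 (SE 0.10) that turned to -0.31 and -0.51 by TPM. NABP2 had an adjusted p of 0.0370 and a log2 fold change of 0.19 in edgeR's test without CBS KO replicate 1, and a log2 fold change of -0.02 without CBS KO replicate 3.

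**Figure D3:**
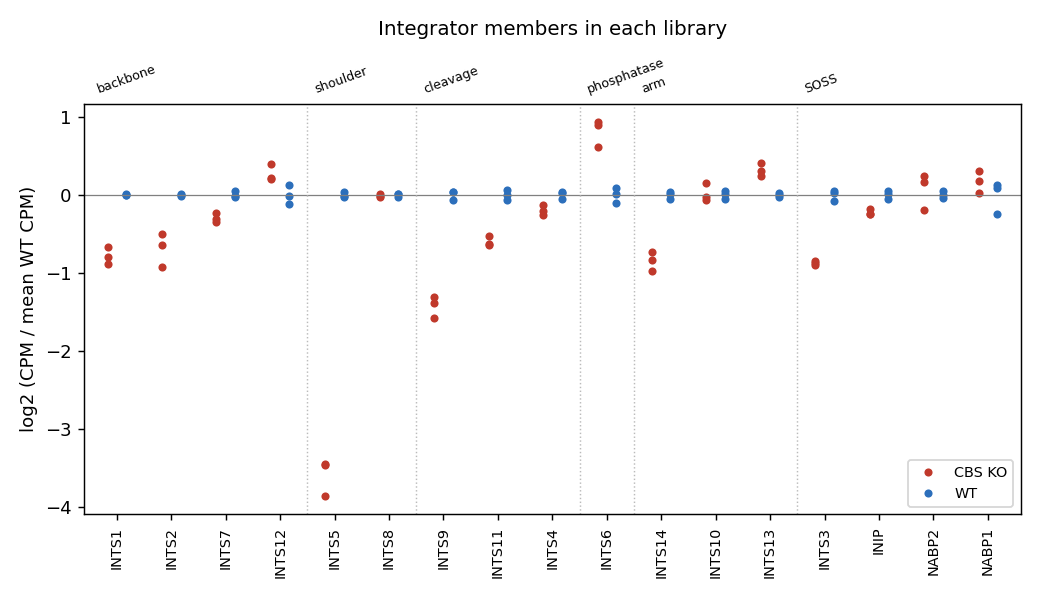
CPM of the 17 Integrator members in each library on a log2 scale, divided by the mean of the WT libraries (vertical axis), grouped by module; red points are the 3 CBS KO libraries and blue points the 3 WT libraries. INTS5 lies between 3 and 4 units below the WT mean in all CBS KO libraries, INTS9 follows with a log2 fold change of -1.42, and INTS6 stands highest at 0.82.

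Outside the rule, C7orf26 (INTS15 in RefSeq, the fourth subunit of the arm) had 13.6, 13.7 and 13.2 CPM in CBS KO, against 15.5, 13.9 and 15.3 CPM in WT. It was not called, with a log2 fold change of -0.14 (SE 0.09) and an adjusted p of 0.175 in edgeR's quasi-likelihood test. For the lists that follow, the shares over all genes were 38.9% lower and 38.4% higher by TMM, with a median log2 fold change of -0.01, and 67.6% lower and 15.3% higher by TPM, with a median of -0.54. Of the 4 core subunits of protein phosphatase 2A, 2 were called lower and 2 higher by TMM, and 3 lower and 1 higher by TPM. PPP2CB, a catalytic subunit, had a log2 fold change of 1.40 (SE 0.06), PPP2R1B, a scaffold subunit, -0.66 (SE 0.08) and PPP2R1A, its paralog, -0.38 (SE 0.07). Of 5 other genes tied to Integrator 2 were lower and 2 higher by TMM, and 3 lower by TPM, with WDR73 at -1.56 (SE 0.11), BRAT1, a partner of INTS9 and INTS11, at -1.54 (SE 0.09) and INTS6L, the paralog of INTS6, at 0.41 (SE 0.11) by TMM and -0.21 by TPM. The cleavage and polyadenylation list, which holds CPSF3 and CPSF2, the paralogs of INTS11 and INTS9, had 12 of 15 genes lower and 1 higher by TMM, with a median log2 fold change of -0.47, and 14 lower by TPM, with a median of -0.99. CPSF3 stood at -1.22 (SE 0.07) and CPSF2 at -0.47 (SE 0.07), and the largest changes were in CLP1 at -1.72 (SE 0.14), CSTF3 at -1.52 (SE 0.08) and CSTF2 at -1.30 (SE 0.11).

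In Mediator, 57.6% of members were lower in CBS KO and 36.4% were higher, against 38.9% and 38.4% of all genes, and MED20 and MED14 were not called. Per length the median member had 14.9 TPM in CBS KO and 29.1 TPM in WT. The CPM of the groups did not overlap in 32 of the 33, MED14 being the exception, against 79.1% of all genes tested. By TMM the head, middle and tail were mostly lower and the kinase module mostly higher. Lower and higher were 7 and 3 of 11 in the head, 6 and 3 of 9 in the middle, 4 and 1 of 5 in the tail, and 2 and 5 of 7 in the kinase module. The assignment used here placed MED27, MED28, MED29 and MED30 in the head, and the counts for head and tail depend on it. By TPM 4 of the 7 kinase module genes were called lower and 1, MED12L, was called higher, against 67.6% and 15.3% of all genes by TPM. The median log2 fold change of the kinase module was 0.39 by TMM and -0.21 by TPM, against -0.01 and -0.54 over all genes. No difference between modules was tested.

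The head contacts the polymerase and its general factors. MED18 had 3.53, 2.64 and 4.07 CPM in CBS KO, against 11.4, 12.5 and 12.1 CPM in WT, the largest fall in Mediator at -1.80 (SE 0.14), with an adjusted p of 5.78e-09 in edgeR's quasi-likelihood test. MED11 had 3.28, 4.57 and 4.55 CPM in CBS KO, against 10.3, 9.71 and 9.67 CPM in WT, a log2 fold change of -1.26 (SE 0.14). No CBS KO library reached a WT library in either gene. MED29, and MED17, a central head subunit, had log2 fold changes of -1.05 (SE 0.07) and -1.04 (SE 0.10). MED22, MED27 and MED6 had smaller falls, with log2 fold changes of -0.72, -0.60 and -0.52, and MED20 was not called at -0.11 (SE 0.07), though it was called lower by TPM at -0.66. In the same module MED8 had 57.4, 67.9 and 68.5 CPM in CBS KO, against 24.4, 28.4 and 29.5 CPM in WT, a log2 fold change of 1.24 (SE 0.09). MED30 had 20.99, 23.8 and 24.9 CPM in CBS KO, against 9.94, 10.1 and 9.72 CPM in WT, a log2 fold change of 1.22 (SE 0.09). Both rose without overlap, and their log2 fold changes by TPM were 0.62 and 0.55. MED28 had a log2 fold change of 0.40 (SE 0.07) by TMM and -0.18 by TPM. The exons of MED28 overlap those of FAM184B over 32.1% of their bases, and those of MED11 overlap AC091153.4 over 31.1%, both on the opposite strand.

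In the middle module MED9 had 12.4, 13.01 and 13.7 CPM in CBS KO, against 33.2, 31.3 and 31.3 CPM in WT, a log2 fold change of -1.29 (SE 0.08). MED1, the subunit that nuclear receptors bind, had 66.3, 78.6 and 62.6 CPM in CBS KO, against 95.7, 96.1 and 97.4 CPM in WT, a log2 fold change of -0.48 (SE 0.08). Both fell without overlap, MED9 by more. MED31, MED7, MED4 and MED19 had log2 fold changes of -0.75 (SE 0.18), -0.38 (SE 0.08), -0.36 (SE 0.09) and -0.35 (SE 0.11). MED19 had an adjusted p of 0.0607 in edgeR's test without CBS KO replicate 2, and the exons of MED31 overlap those of TXNDC17 over 58.3% of their bases. MED10 had 35.99, 37.1 and 37.4 CPM in CBS KO, against 21.4, 18.7 and 20.5 CPM in WT, a log2 fold change of 0.87 (SE 0.08), and it remained higher by TPM at 0.28. MED26, which links Mediator to elongation factors, had a log2 fold change of 0.72 (SE 0.10) by TMM and 0.11, not called, by TPM, and MED21 0.40 (SE 0.07) by TMM and -0.17 by TPM. Over 27.2% of its exonic bases MED26 overlaps another gene model on the same strand.

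MED14, the scaffold, had 109.9, 112 and 98.3 CPM in CBS KO, against 105, 98.2 and 99.7 CPM in WT. Its groups overlapped, and the log2 fold change of 0.08 (SE 0.06) had an adjusted p of 0.29 in edgeR's quasi-likelihood test, while by TPM it was -0.48. In the tail, which activators contact, MED25 had 23.9, 28.3 and 25.9 CPM in CBS KO, against 55.7, 52.01 and 55.4 CPM in WT. It was among the 4 largest falls of Mediator, with a log2 fold change of -1.06 (SE 0.08). MED16, MED23 and MED24 had log2 fold changes of -0.81 (SE 0.07), -0.69 (SE 0.08) and -0.51 (SE 0.07). MED15 was the exception among the genes placed in the tail here, at 0.70 (SE 0.05) by TMM, though by TPM its change was 0.12 and not called. Its level per length was among the highest of Mediator, at 86.2 TPM in CBS KO and 79.2 TPM in WT.

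**Figure D4:**
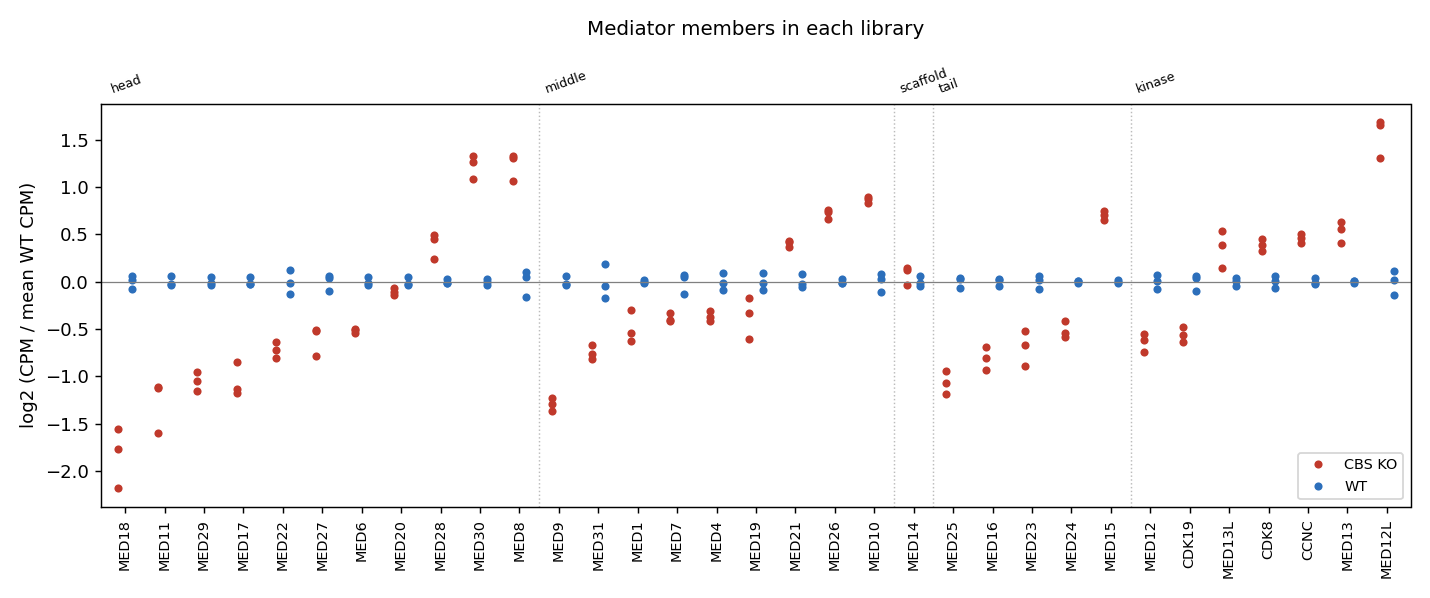
CPM of the 33 Mediator members in each library on a log2 scale, divided by the mean of the WT libraries (vertical axis), grouped by module; red points are the 3 CBS KO libraries and blue points the 3 WT libraries. The blue points stay near 0 while the red points run from MED18 (log2 fold change -1.80) to MED12L (1.56), and 5 of the 7 kinase module genes lie above 0 by TMM, where TPM keeps 1.

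The kinase module holds a cyclin-dependent kinase, CDK8 or its paralog CDK19, with cyclin C and the large subunits MED12 and MED13 or their paralogs. CDK8 had 44.6, 48.5 and 46.5 CPM in CBS KO, against 33.8, 35.7 and 37.2 CPM in WT. CDK19 had 24.8, 23.6 and 22.3 CPM in CBS KO, against 36.2, 32.4 and 35.6 CPM in WT. The paralogs were called in opposite directions by TMM, with log2 fold changes of 0.39 (SE 0.07) and -0.56 (SE 0.08), while CDK8 turned to -0.19 by TPM. The ratio of CDK8 to CDK19 within a library, which the scaling leaves alone, was 3.98, 4.54 and 4.58 in TPM in CBS KO libraries, against 2.06, 2.39 and 2.34 in WT libraries, without overlap. CCNC had 97.1, 93.95 and 90.6 CPM in CBS KO, against 70.2, 67.4 and 67.5 CPM in WT, a log2 fold change of 0.46 (SE 0.06) by TMM and -0.21 by TPM.

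MED12, which activates the kinase, had 60.4, 58.1 and 53.01 CPM in CBS KO, against 93.3, 84.1 and 89.2 CPM in WT. MED12L, its paralog, had 20.1, 19.7 and 15.4 CPM in CBS KO, against 6.76, 5.65 and 6.34 CPM in WT. MED12 fell in CBS KO, with a log2 fold change of -0.64 (SE 0.07). MED12L rose, with 1.56 (SE 0.12) and an adjusted p of 5.34e-09 in edgeR's quasi-likelihood test, the largest rise among the members by TMM. The change of MED12L was 0.64 by TPM and 0.68 by FPKM, where MED8 at 0.84 and MED30 at 0.77 rose more. The ratio of MED12L to MED12 in TPM was 0.281, 0.266 and 0.247 in CBS KO libraries, against 0.0672, 0.0490 and 0.0597 in WT libraries, so MED12 remained the more abundant of the pair in both groups. Without regard to strand, reads of IGSF10 could count for MED12L, since 28.8% of its exonic bases overlap that gene. MED13 had 184, 193 and 165 CPM in CBS KO, against 126, 125 and 123 CPM in WT, a log2 fold change of 0.53 (SE 0.06) by TMM and -0.20 by TPM, and MED13L had 0.37 (SE 0.08) by TMM and -0.21 by TPM. The ratio of MED13L to MED13 in TPM overlapped between the groups, at 1.53, 1.27 and 1.34 in CBS KO libraries and 1.41, 1.34 and 1.41 in WT libraries.

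Promoter windows were matched in RefSeq (GRCh38.p14) for 37 of the 50 members, each covering 250 bases before and 50 after the start of the gene. INTS5 is not among the 37, so its promoter is neither printed nor part of the motif shares below. The windows of MED18, the Mediator member with the largest fall, and of the paralog pairs that were called in opposite directions are given here from 5′ to 3′ on the strand of the gene, with motif matches in capitals. They stand at chr1:28328790-28329089 (plus strand), chr6:110815806-110816105 (minus), chr13:26253879-26254178 (plus), chrX:71118346-71118645 (plus) and chr3:151085414-151085713 (plus), in the order printed.
MED18: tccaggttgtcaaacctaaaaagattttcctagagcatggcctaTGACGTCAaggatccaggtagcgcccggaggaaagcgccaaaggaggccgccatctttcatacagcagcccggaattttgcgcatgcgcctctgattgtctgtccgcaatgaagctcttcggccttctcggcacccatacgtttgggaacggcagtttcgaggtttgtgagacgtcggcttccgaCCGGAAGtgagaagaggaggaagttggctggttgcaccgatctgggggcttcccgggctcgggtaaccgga
CDK19: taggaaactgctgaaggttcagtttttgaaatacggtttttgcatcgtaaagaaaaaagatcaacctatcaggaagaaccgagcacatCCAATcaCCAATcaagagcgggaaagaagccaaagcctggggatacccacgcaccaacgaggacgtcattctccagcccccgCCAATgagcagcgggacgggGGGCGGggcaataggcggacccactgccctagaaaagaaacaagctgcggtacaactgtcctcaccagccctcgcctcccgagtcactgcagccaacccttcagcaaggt
CDK8: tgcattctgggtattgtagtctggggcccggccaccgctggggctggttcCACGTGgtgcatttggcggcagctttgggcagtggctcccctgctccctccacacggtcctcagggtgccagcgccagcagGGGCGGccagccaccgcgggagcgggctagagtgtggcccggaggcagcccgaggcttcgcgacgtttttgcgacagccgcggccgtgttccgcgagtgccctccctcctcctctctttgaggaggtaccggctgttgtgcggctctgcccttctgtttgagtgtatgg
MED12: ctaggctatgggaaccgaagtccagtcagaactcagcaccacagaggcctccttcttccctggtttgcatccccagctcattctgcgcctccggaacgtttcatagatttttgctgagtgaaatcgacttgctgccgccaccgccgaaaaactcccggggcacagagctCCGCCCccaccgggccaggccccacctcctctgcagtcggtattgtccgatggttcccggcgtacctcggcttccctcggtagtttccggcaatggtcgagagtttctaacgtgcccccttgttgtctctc
MED12L: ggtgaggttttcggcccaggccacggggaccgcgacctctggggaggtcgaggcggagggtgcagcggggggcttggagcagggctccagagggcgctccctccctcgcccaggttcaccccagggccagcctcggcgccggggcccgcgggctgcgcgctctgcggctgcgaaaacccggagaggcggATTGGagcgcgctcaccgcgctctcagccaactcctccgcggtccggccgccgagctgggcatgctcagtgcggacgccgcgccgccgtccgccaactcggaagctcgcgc

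Motifs were searched on both strands as exact letters, and overlapping matches were counted. The comparison is with the windows of all genes tested that had one, 10659 in number. A GC box, written GGGCGG, stood in 67.6% of the members' windows, against 69.5% of those of all genes tested. A match for ETS factors, written CCGGAAG, stood in 12 of the 37 members' windows, or 32.4%, against 18.95% of those of all genes tested. A CCAAT box stood in 48.6% of the members' windows and in 36.9% of all. The TATA box, searched as TATAAA, stood in 5.41% of the members' windows and in 5.94% of all. The E-box, searched as CACGTG, stood in 8.11% of the members' windows and in 10.1% of all. A cyclic AMP response element, searched as TGACGTCA, stood in 5.41% of the members' windows and in 3.19% of all. The window of CDK19 held 3 CCAAT matches and a GC box, and that of CDK8 a GC box and an E-box but no CCAAT match. MED18 held an ETS match and a cyclic AMP response element. MED12 held a GC box and MED12L a CCAAT match. These are matches of letters and not known sites.

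Gene structure was set beside the change as a description. Over the 50 members, which are different genes in the same libraries and not replicates, Spearman's rho with the log2 fold change was 0.10 for the number of coding exons, 0.02 for transcript length, 0.29 for the span of the gene, -0.35 for the GC content of the transcript and -0.04 for the share of the coding length in the largest exon. Over all genes with a coding transcript in GENCODE v29, 12960 in number, the same values were -0.09, -0.07, 0.00, -0.14 and 0.03. INTS5 is 1 of only 3 members with at least 90% of the coding length in the largest exon, together with MED7 and MED26, and these had log2 fold changes of -3.58, -0.38 and 0.72. Of 947 genes with this structure 22.9% were lower at least 2-fold. The share was 16.3% of 1919 genes at 50 to under 90% and 9.46% of 10094 genes under 50%. The medians of these classes were -0.13, -0.04 and 0.00, and shares at least 2-fold higher were not computed by class. By number of coding exons, of which INTS5 has 2, the picture differed. Of 2429 genes with 2 to 4 coding exons 12.6% were lower at least 2-fold, against 11.5% of all genes tested, with a median of 0.11. Of 736 genes with 1 coding exon 24.2% were, with a median of -0.08. These 736 genes all belong to the 947 with at least 90% of the coding length in the largest exon. The share among the rest of the 947, which like INTS5 have at least 2 coding exons, was not computed.

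**Figure D5:**
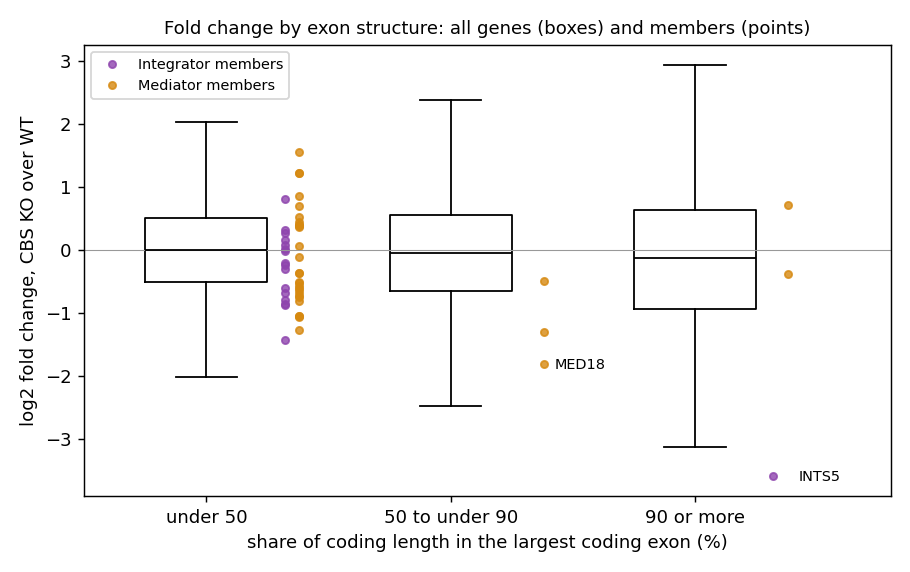
Log2 fold change (CBS KO over WT, vertical axis) by the share of the coding length in the largest coding exon (horizontal axis, percent); boxes show the median and quartiles of all genes with whiskers to the farthest gene within matplotlib's default reach, and points show the members. INTS5, at -3.58, lies below the whisker of its class, and the other members stay within theirs.

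Other parts of the transcription apparatus were mixed, and are read here against 38.9% lower and 38.4% higher of all genes by TMM and 67.6% lower and 15.3% higher by TPM. RNA polymerase II subunits were lower in 6 and higher in 4 of 12 by TMM, and lower in 11 by TPM, with POLR2A, the catalytic subunit, at -1.01 (SE 0.07), POLR2D at -0.74 (SE 0.07) and POLR2L at -0.66 (SE 0.10). Their median log2 fold change was -0.14 by TMM and -0.69 by TPM, against -0.01 and -0.54 over all genes. General transcription factors were lower in 7 and higher in 7 of 18 by TMM, and lower in 14 and higher in 1 by TPM, with shares by TMM of 38.9% each that lie at those of all genes. Their largest changes were in GTF2E1 at -1.19 (SE 0.11) and in the helicase subunits ERCC3 at -1.06 (SE 0.07) and ERCC2 at -1.05 (SE 0.07). Of the pausing factors and P-TEFb, the kinase complex that releases paused polymerase, 8 were lower and 4 higher of 14 by TMM, and 11 were lower by TPM. MEPCE, which caps the 7SK RNA, stood at -1.62 (SE 0.08), HEXIM2, an inhibitor of P-TEFb, at -1.02 (SE 0.14), and the cyclin CCNT1 at 0.80 (SE 0.07) by TMM and 0.21, not called, by TPM. The list of the snRNA activating complex, which starts transcription of the small nuclear RNA genes, held its 5 SNAPC subunits and POU2F1 and ZNF143, separate transcription factors of those genes. Of the 7 genes 5 were higher and 1 lower by TMM, and 1 was higher and 2 lower by TPM. Of the 5 SNAPC subunits 3 were higher and 1 lower by TMM, with SNAPC1 at 1.29 (SE 0.14), SNAPC4 at -0.84 (SE 0.10) and SNAPC2 at 0.71 (SE 0.08) by TMM and 0.13, not called, by TPM.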

How the data were processed

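RNA was sequenced from 3 CBS KO and 3 WT samples of Caco-2 cells as strand-marked poly(A) libraries, per the labels' protocols. Per the submitters' processing notes the build was GRCh38, and the tools included StringTie 2.1.6, HISAT2 2.2.1 and cutadapt 1.9, besides edgeR and DESeq2, with no role given. The authors deposited estimated counts per gene, with 7.12 to 7.43% of values in each library not whole. The authors deposited FPKM values, per the file headers, which divide by gene length and library total. The authors deposited TPM values, per the file headers. How reads were assigned to genes, with or without strand and among paralogs, is not given in the sources used here, so the 26 members whose exons overlap another gene are uncertain. The 6 mean columns were not used.

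Estimated counts were rounded, filtered with filterByExpr, scaled by TMM and compared by edgeR's robust quasi-likelihood test (edgeR 4.0.16, R 4.3.3) without covariates, with Benjamini-Hochberg adjustment over the 13028 genes tested and calls at 0.05. FPKM and TPM were tested with limma 3.58.1 on log2(value + 1) for genes at 1 or more in at least 3 libraries, so their fold changes understate those of low genes. Each SE given was derived from edgeR's test, as the size of the log2 fold change over the square root of the F statistic. DESeq2 1.42.0 was an alternative. The ratio of INTS5 to INTS8 was tested with SciPy's exact permutation test. The scripts were tested on simulated counts in which few genes changed, in both directions alike. Such counts cannot test the scaling where most genes differ, as in these libraries. Depth was 12805180 to 16176745 estimated counts per library, and a count of 0 allows, at 3 counts, up to 0.164 to 0.264 CPM, for counting error only.

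Members and lists were chosen with earlier results of these data known. Every member is named, and values in each library are given for all Integrator members, for the 4 called Mediator members with the largest change in each direction and for CDK8, CDK19, CCNC, MED12, MED13, MED14 and MED1. Of each further list up to 3 called genes with the largest change are named, besides CPSF3 and CPSF2 as paralogs of members.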

Additional observations from a re-analysis of the deposited data

How the results depend on the processing

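INTS5 kept its direction and its call under every alternative tried, with log2 fold changes of -2.82 (FPKM) to -4.05 (TPM with a pseudocount of 0.1) and of -3.47 to -3.65 with a library left out, and it stayed the lowest Integrator member in each. Its ratio to INTS8 kept its direction in TPM and FPKM and without any 1 library, where the smallest p allowed is no lower than 0.1. Scaling by library total, FPKM, TPM and TPM with 0.1 called 2966, 2722, 1878 and 1866 genes higher, against 4998 by TMM, and called 1, 1, 0 and 0 Integrator members higher, against 3, and 7, 6, 4 and 4 Mediator members higher, against 12. No Integrator member was higher by TPM in limma at an unadjusted p under 0.05 either, while DESeq2 called 3. TPM and TPM with 0.1 called 8294 and 8266 genes lower, against 5062, and 16 Integrator members lower in both, against 10. Under TPM and TPM with 0.1, CCNC turned to -0.21 and -0.21, CDK8 to -0.19 and -0.20, MED13 to -0.20 and -0.21, MED13L to -0.21 and -0.22, MED21 to -0.17 and -0.18 and MED28 to -0.18 and -0.19. Under library total, FPKM, TPM and TPM with 0.1, INTS10 turned to -0.33, -0.32, -0.55 and -0.58, INTS12 to -0.078, -0.10, -0.32 and -0.34, INTS13 to -0.036, -0.026, -0.25 and -0.26, MED14 to -0.28, -0.25, -0.48 and -0.50, NABP1 to -0.18, -0.092, -0.31 and -0.34, and NABP2 to -0.27, -0.28, -0.51 and -0.52. These settings put the median of all genes at -0.36, -0.32, -0.54 and -0.60. The library total setting was the main test with the TMM factors left out. For FPKM and TPM the cause of the shift was not tested. INTS8 turned to 0.0036 with median-ratio factors and with DESeq2. INTS10 turned to -0.017 without the filter on low counts, and with a library left out it ranged from -0.061 (without CBS KO replicate 3) to 0.056 (without CBS KO replicate 1), with -0.0078 without WT replicate 1. NABP2 ranged from -0.019 (without CBS KO replicate 3) to 0.19 (without CBS KO replicate 1). Genes called ranged from 9572 to 10262, Integrator members called from 11 to 14 and Mediator members called from 30 to 31 with a library left out. Counting C7orf26 as a member, an alternative chosen after seeing the data, left 13 Integrator members called. Replicate numbers do not pair the samples by the labels, and same-numbered samples deviated together at correlations of only 0.03, 0.02 and 0.02. With the replicate block 10044 genes were called, against 10060 without it, and no member changed its call. MED31 had too few counts for the filter at a mean of 5 CPM. Counts of INTS5 in CBS KO, 25 to 33, limit the precision of its fold change, and poly(A) selection limits what can be said of RNAs without a tail.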
